A study of Mus musculus with 19 samples.

Results

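The highest dose of benzo(a)pyrene (BaP) was compared with the lowest dose in mouse lung, over 10 arrays of 10 mice out of 19 arrays in all. Arrays titled as high dose (mice 16 to 20, 75 mg/kg/day) were set against arrays titled as low dose (mice 6 to 10, 25 mg/kg/day), so that neither the differences nor their errors rest on the control mice. All 10 mice were males of the MutaMouse, a transgenic mouse (strain 40.6 in the labels) that carries a reporter for scoring mutations, and all were 25 weeks old. BaP was given daily by gavage over 28 days, and a part of the lung was collected 3 days after dosing had ended. The other 9 arrays, from 5 mice given the vehicle and 4 mice at 50 mg/kg/day, served for description alone. On each 2-colour Agilent array the lung RNA of 1 mouse was hybridised against a commercial reference RNA pooled from 11 mouse cell lines, and the value of a gene is the log2 ratio of lung over reference after background correction and loess. A difference between doses is therefore a log2 difference of ratios, and a fold is its antilog.

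BaP is a polycyclic aromatic hydrocarbon formed in combustion. Cytochrome P450 enzymes that are induced through the aryl hydrocarbon receptor (AhR) turn it into a diol epoxide that binds to DNA, and epoxide hydrolase takes part in that route. Bulky adducts and stalled replication activate the transcription factor p53, whose targets arrest the cell cycle, repair DNA or start apoptosis. The lung also answers injury with acute-phase proteins such as the serum amyloids and lipocalin 2, which epithelial cells and macrophages make under NF-kB and C/EBP factors.

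Of the 18566 genes tested, 103 (0.555%) passed an adjusted p of 0.05 in limma, with 76 genes higher at 75 mg/kg/day (0.409%) and 27 lower (0.145%). Of these, 64 differed by at least 1.5-fold. Without adjustment, 1601 genes (8.62%) had a p under 0.05, and the median difference over all genes was -0.01. Values of the 5 mice at one dose did not overlap with those at the other dose for 100 of the 103 genes, against 424 of all genes (2.28%), of which 252 were higher (1.36%) and 172 lower (0.926%). The largest rise was that of the acute-phase gene Saa3, followed by the carboxylesterase Ces2e, the p53 targets Cdkn1a and Gdf15, Psrc1 and the endothelial gene Mmrn2. The largest falls were those of the capillary genes Gpihbp1 and Ednrb. The plot of all genes shows that the rises reached further than the falls. The count of 103 depended on single mice: it was 47, 65, 63 and 45 without mouse 7, 8, 9 or 10 at 25 mg/kg/day, 37 and 44 without mouse 16 or 18 at 75 mg/kg/day, and 184 without mouse 20. With arrays centred on their median in place of loess, 0 genes passed in limma (1567 at an unadjusted p under 0.05), so every call given below ends there. The median difference over all genes then moved to 0.21, although 93 of the 103 kept their direction.

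**Figure D1:**
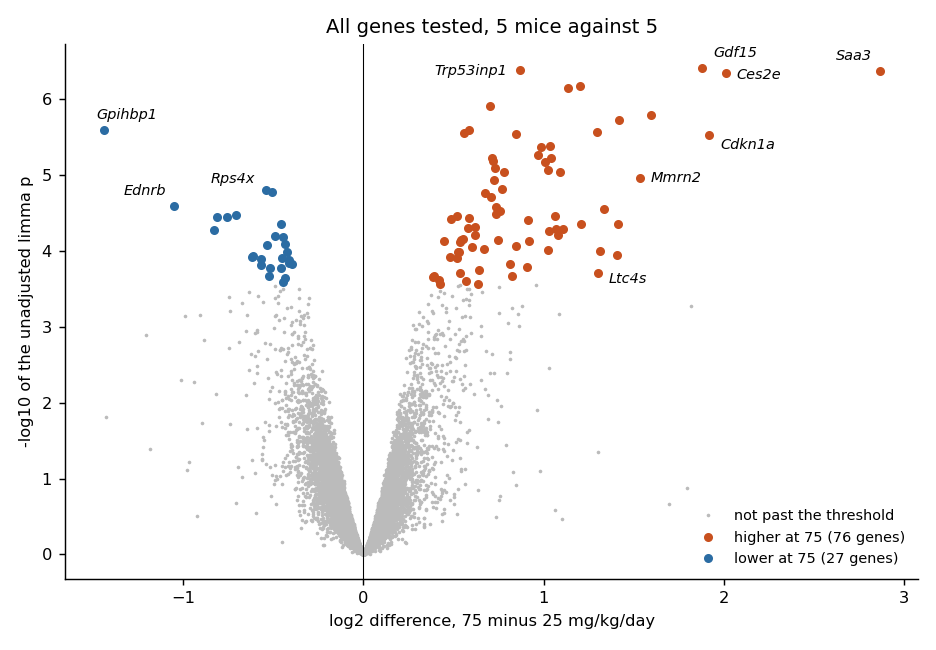
Log2 difference of each of the 18566 genes (75 minus 25 mg/kg/day, x axis) against the negative log10 of its unadjusted limma p (y axis), with 5 mice per dose. Orange points are the 76 genes higher at 75 mg/kg/day and blue points the 27 lower; Saa3 lies farthest to the right at 2.86 and Gpihbp1 farthest to the left among the called genes at -1.44.

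The arrays lay on 5 slides that each held 1 mouse of either dose. Of the 103 genes, 101 differed in the same direction on all 5 slides, against 2727 of all 18566 genes. A gene without overlap between the doses must do so, and the 103 were called on these arrays, so the count is no separate evidence. With slide as a block, a fit that called 226 genes (1.22%), 97 of the 103 kept their call. On every slide the mouse at 25 mg/kg/day was at array position 2 and the mouse at 75 mg/kg/day at position 4, so dose and position on the slide cannot be told apart. In the reference channel, which holds the same RNA on every array, 0 genes passed the same limma test between the doses (287, or 1.55%, at an unadjusted p under 0.05), and 1 passed with slide as a block. Among the largest rises and falls named above, the reference channel differed by -0.46 in Gpihbp1, 0.31 in Mmrn2 and 0.26 in Gdf15, none passing. These are the directions of the lung ratios. In Saa3, Ces2e, Cdkn1a, Psrc1 and Ednrb the reference channel differed by -0.04 to 0.04. The lung channel gave 20786 to 27279 spots well above background on each of the 10 arrays. The array of mouse 20 had the most and was the one of the 10 marked for evaluation by the scanner's quality report. Markers of alveolar type 2 cells stood at a mean log2 ratio of 3.47 to 4.07 in the mice at 25 mg/kg/day and 3.50 to 3.79 at 75 mg/kg/day. In whole tissue, fewer cells of a type and less RNA per cell cannot be told apart.

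Targets of p53 were among the genes that rose. Of 27 targets for arrest and survival tested, 10 rose and 0 fell, with a median difference of 0.33 against -0.01 over all genes. Over all 18566 genes tested, 0.409% rose and 0.145% fell, and every list count below is to be read beside these shares. Cdkn1a encodes p21, the inhibitor of cyclin-dependent kinases. Its log2 ratio was 0.55, -0.09, 0.23, -0.09 and -0.55 in mice 6 to 10 at 25 mg/kg/day and 2.40, 1.89, 2.51, 1.27 and 1.56 in mice 16 to 20 at 75 mg/kg/day. The lowest mouse at 75 mg/kg/day, mouse 19, stood well above the highest at 25 mg/kg/day, mouse 6. By limma, Cdkn1a rose 3.78-fold with a 95% interval of 2.62 to 5.45 (5 mice per dose, adjusted p = 0.0037). Each limma p-value sets a difference against the spread between these few mice, after moderating that spread over all genes.

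Gdf15 encodes a cytokine released by stressed cells, and it had log2 ratios of 0.05, -0.24, -0.19, -0.48 and -1.09 in mice 6 to 10 and 1.73, 1.60, 1.82, 1.14 and 1.15 in mice 16 to 20. It was 3.68-fold higher (2.72 to 4.96, limma adjusted p = 0.0021), with no overlap between the doses. Ccng1, cyclin G1, which recruits a phosphatase to Mdm2, stood at 1.38, 0.84, 1.03, 0.58 and 0.73 at 25 mg/kg/day and at 2.74, 2.38, 2.52, 2.15 and 1.84 at 75 mg/kg/day. This rise was 2.67-fold (2.06 to 3.46), and a second Ccng1 probe gave a difference of 1.48 against 1.42 for the probe used. Mice 16 and 18 held the 2 highest values of Cdkn1a, Gdf15 and Ccng1 at 75 mg/kg/day, and mice 19 and 20 the 2 lowest.

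Psrc1, a spindle protein and p53 target, was 3.02-fold higher on the probe used (2.26 to 4.03), while its other probes gave differences of 0.77 and 0.45 against 1.60. Ddit4l, an inhibitor of mTOR signalling, was 2.66-fold higher (1.87 to 3.78, limma adjusted p = 0.017) and its call ended without any one of mice 7, 10 and 16 (adjusted p up to 0.055). Control mouse 5 stood at 3.33 in Ddit4l, above all 5 mice at 75 mg/kg/day, and with all 19 arrays in one fit the adjusted p was 0.31. Phlda3, which restrains Akt, rose 2.13-fold, Zmat3, an RNA-binding protein, 2.06-fold, the adenylate kinase Ak1 2.05-fold and Trp53inp1, a stress protein that acts with p53, 1.83-fold. Ak1 was at 0.96 in control mouse 5, again above every mouse at 75 mg/kg/day, and its adjusted p with all arrays was 0.21. The skeletal muscle marker list had a mean log2 ratio of 4.28 in control mouse 5 (other controls -0.36 to 0.40). The part of this tissue in its Ddit4l and Ak1 values was not tested. Among genes of apoptosis, Bax, the pore-forming protein of mitochondria, rose 1.65-fold (1.41 to 1.93) and Ei24, an endoplasmic reticulum protein, 1.5-fold (1.34 to 1.67). Aen, a nuclease induced in apoptosis, was 1.88-fold higher on the probe used, but its groups overlapped, its other probe gave 0.27 against 0.91, and its call ended without any one of mice 7, 8, 9, 10, 16, 18, 19 and 20 (adjusted p up to 0.118), and with all arrays in one fit (0.064).

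Feedback and metabolic targets of p53 rose more narrowly, with 5 of 25 higher, 0 lower and a median of 0.07. Mdm2, the ligase that degrades p53, was at -0.23, -0.27, -0.36, -0.29 and -0.28 in mice 6 to 10 and at 0.91, 0.68, 0.92, 0.08 and 0.22 in mice 16 to 20. The mice at 25 mg/kg/day lay close together, and those at 75 mg/kg/day were spread with mice 19 and 20 low. The rise was 1.80-fold (1.44 to 2.26, limma adjusted p = 0.024), and the call ended without any one of mice 6 to 10, 16, 17 and 18 (adjusted p up to 0.072). A second Mdm2 probe gave 0.53 against 0.85. Sesn2, a sestrin that curbs mTOR, rose 1.89-fold and Polk, the polymerase that copies past bulky adducts, 1.54-fold. The Sesn2 call ended without any one of mice 7, 9, 10 and 16, and the Polk call without any one of mice 7, 10, 16 and 18 (adjusted p up to 0.070 and 0.061). Trp53 itself, named after its value was seen, differed by -0.03 ± 0.08 (SE) on the probe used and by 0.22 on another, neither of which passed. Outside both lists, and named after their values were seen, Rps27l, a ribosomal protein paralog induced by p53, rose 1.64-fold and Ccnd1, cyclin D1, 1.80-fold (1.53 to 2.11).

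Promoters are shown for 4 of these genes because the p53 recognition sequence could be searched in them. Promoters from 250 bases before to 50 bases after the start, from RefSeq on build GRCm38.p6, were matched for 49 of the 63 called genes with a symbol that were higher and 15 of the 19 that were lower. The p53 half-site, a palindrome searched by its usual degenerate form, occurred in 15 of the 49 (30.6%), in 1 of the 15 (6.67%) and in 9.55% of all 27025 genes with a promoter. A full site, here 2 half-sites with a spacer of at most 13 bases, occurred in 1 of the 49, Cdkn1a, and in 0.074% of all genes. Capitals mark the half-sites that match the searched form in every base, and a near match stays in lower case. Each window holds 80 bases of the promoter around or up to the match, read 5′ to 3′ on the strand of the gene. The windows lie at chr17:29090882-29090961 (plus strand) for Cdkn1a, chr11:40755427-40755506 (minus) for Ccng1, chr7:45467055-45467134 (minus) for Bax and chr9:36797335-36797414 (minus) for Ei24. A match describes these letters and does not show that p53 binds there.
Cdkn1a: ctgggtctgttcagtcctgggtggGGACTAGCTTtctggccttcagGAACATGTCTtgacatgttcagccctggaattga
Ccng1: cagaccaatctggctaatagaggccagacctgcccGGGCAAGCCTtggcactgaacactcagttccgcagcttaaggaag
Bax: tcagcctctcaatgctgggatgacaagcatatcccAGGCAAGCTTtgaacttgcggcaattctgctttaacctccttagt
Ei24: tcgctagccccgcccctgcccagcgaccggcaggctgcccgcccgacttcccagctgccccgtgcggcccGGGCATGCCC
Counted from the start, the first half-site of Cdkn1a begins at base -73 and is 12 bases from the next, and that of Ei24 begins at base -10. Mdm2, Aen, Polk, Rps27l, Ddit4l and Sncg also hold a half-site in their promoters.

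Among enzymes that handle foreign compounds, 2 of 37 rose and 0 fell, with a median of -0.04. Ces2e, a carboxylesterase, was at 1.23, 1.41, 0.94, 1.47 and 0.90 in mice 6 to 10 and at 3.20, 3.21, 4.03, 2.95 and 2.59 in mice 16 to 20. The ranges lay more than 1 log2 unit apart, and the rise was 4.03-fold (2.91 to 5.57, limma adjusted p = 0.0021). Its relative Ces2a differed by 0.42 ± 0.10 (SE) without passing (adjusted p = 0.11, and 0.039 with slide as a block), and it was well above background on 2 of the 5 arrays at 25 mg/kg/day. Ephx1, the microsomal epoxide hydrolase, rose 1.69-fold (1.41 to 2.03) and a second probe gave 0.82 against 0.76. The Ephx1 call ended without mouse 16 (adjusted p = 0.051). The monooxygenase Fmo1 did not pass, at -0.60 ± 0.15 (adjusted p = 0.11).

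Acute-phase and inflammation genes rose beside the p53 targets, and in them control mouse 4 gives another picture. Of 23 genes of NF-kB signalling and acute inflammation, 4 rose (Saa3, Lcn2, Tnfaip3 and Ccl2), 0 fell and the median was 0.17. Saa3, serum amyloid A3, was at -2.84, -3.17, -2.84, -3.20 and -3.0 in mice 6 to 10 and at 0.46, -1.05, 0.81, -0.97 and 0.01 in mice 16 to 20. The mice at 25 mg/kg/day were uniformly low, and all those at 75 mg/kg/day were high, with a rise of 7.28-fold (4.59 to 11.5, limma adjusted p = 0.0021). In the mice outside the comparison Saa3 was at 0.58, -0.43, -3.15 and -2.78 at 50 mg/kg/day (mice 12 to 15) and at -3.05, -2.27, -2.78, 0.21 and -2.76 in controls 1 to 5. Control mouse 4 was therefore within the range at 75 mg/kg/day, and the mice at 50 mg/kg/day fell into 2 high and 2 low.

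Saa1, which encodes the circulating form of serum amyloid A, was at -1.28 to -1.16 in mice 6 to 10 and at 0.50, -0.44, 0.84, -0.47 and 0.12 in mice 16 to 20, a rise of 2.52-fold (1.84 to 3.46, limma adjusted p = 0.015). Its call ended without mouse 16 (adjusted p = 0.051). With all 19 arrays in one fit, where control 4 (0.53) and mouse 13 at 50 mg/kg/day (3.37) widen the spread, the adjusted p was 0.70 for the same difference. Lcn2, lipocalin 2, which binds bacterial iron carriers, was at 0.77, 1.03, 1.76, 1.45 and 0.85 in mice 6 to 10 and at 3.03, 2.40, 2.91, 1.80 and 2.27 in mice 16 to 20. The highest mouse at 25 mg/kg/day (mouse 8) and the lowest at 75 mg/kg/day (mouse 19) almost touched. The rise was 2.48-fold (1.74 to 3.54, limma adjusted p = 0.026), and its call ended without any one of mice 6, 7, 9, 10, 16, 17 and 18 (adjusted p up to 0.085) and with all arrays in one fit (0.22).

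Ltc4s, the synthase of leukotriene C4, rose 2.46-fold (1.69 to 3.6, limma adjusted p = 0.039), and its call ended without any one of mice 6 to 10, 16, 17 and 18 (adjusted p up to 0.117) and with all arrays in one fit (0.075). Ccl9, a chemokine for myeloid cells that was named after its value was seen, rose 2.12-fold, with the call lost without any one of mice 7, 10, 16, 17 and 18 (up to 0.066) and with all arrays (0.28). Ccl2, the monocyte chemokine, rose 1.77-fold with overlapping groups, and its call ended without any one of mice 6 to 10, 16, 17, 18 and 20 (up to 0.112) and with all arrays (0.15). Tnfaip3, a brake on NF-kB, rose 1.43-fold, with the call lost without any one of mice 6, 7, 8, 10, 16, 17 and 18 (up to 0.097). The chemokine Cxcl1, named after its value was seen, did not pass (0.66 ± 0.14, adjusted p = 0.056). Control mouse 4 lay within the range at 75 mg/kg/day in Ltc4s (2.52), Ccl2 (-2.99) and Tnfaip3 (0.37) as well, and above it in Ccl9 (1.44). In Ccl2 control mouse 2 (-3.18) was within that range too.

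**Figure D2:**
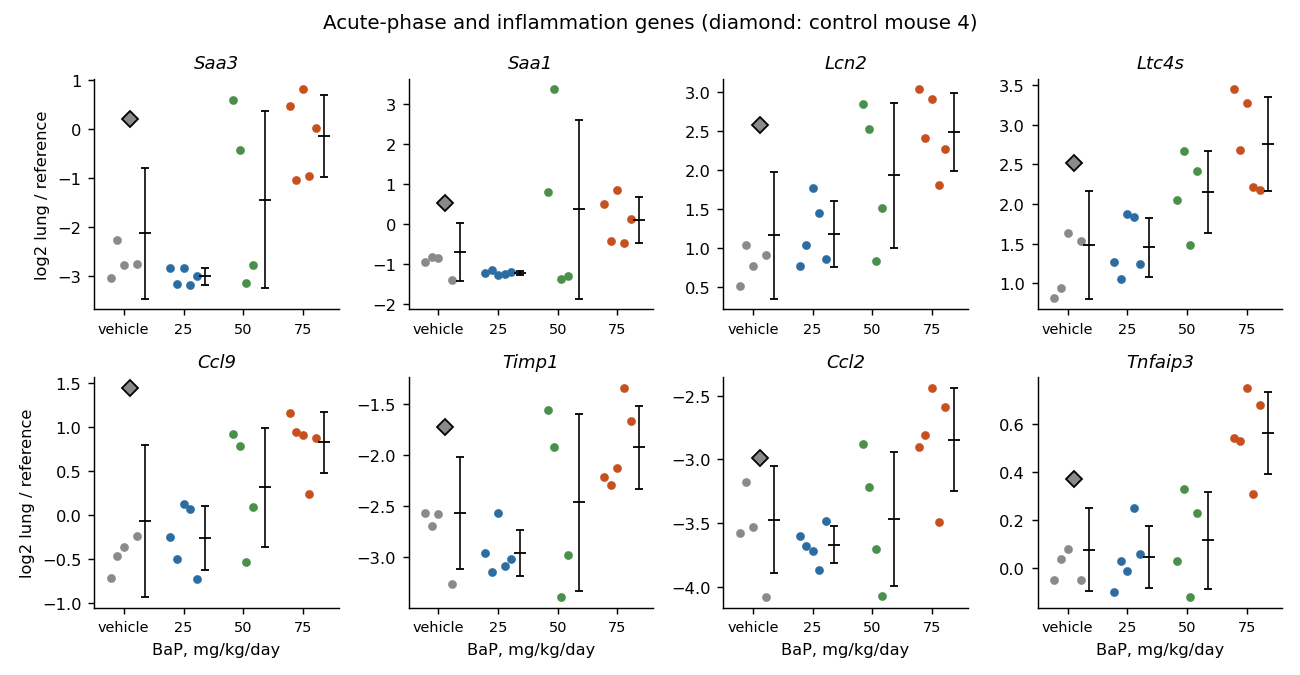
Log2 lung over reference ratio (y axis) of 8 acute-phase and inflammation genes in each mouse by dose group (x axis; vehicle 5 mice, 25 mg/kg/day 5, 50 mg/kg/day 4, 75 mg/kg/day 5); the bar is the group mean with its SD. Control mouse 4, the diamond, lies at or above the lowest mouse at 75 mg/kg/day in all 8 panels, and in Saa3 the mice at 50 mg/kg/day separate into 2 near 75 mg/kg/day and 2 near 25 mg/kg/day.

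Of the 76 genes that rose, 16 had at least 1 control mouse at or above the lowest mouse at 75 mg/kg/day, and control mouse 4 did so in 13 of them, controls 2 and 5 in 2 each, and controls 1 and 3 in 0. The same control had the highest level among the controls of the marker lists of cardiac muscle (3.04), airway secretory cells (4.04) and adipose tissue (2.95), and the part of these tissues was not tested. For the remaining 60 genes, Cdkn1a, Gdf15, Ccng1, Mdm2 and Ces2e among them, no control mouse came that high. Markers of neutrophils and mast cells, of which Lcn2 is a member, had 1 of 16 higher (Lcn2) and 0 lower, and their mean log2 ratio ranged from 1.14 to 1.52 at 25 mg/kg/day and from 1.20 to 1.82 at 75 mg/kg/day. The neutrophil proteins S100a8 and S100a9 differed by 0.30 ± 0.21 and 0.07 ± 0.18 (SE), neither passing (adjusted p = 0.79 and 0.96). The part of these cells in the rise of acute-phase genes was not tested.

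Promoters of Saa3, Saa1 and Lcn2 are shown because C/EBP factors are known regulators of acute-phase genes. The letters searched were TTGCNNAA on either strand, found in 6 of the 49 higher genes with a promoter (12.2%) in 3 of the 15 lower genes (20.0%) and in 12.2% of all genes, so the share among the genes that rose was that of the background. The other 3 of the 6 were Ces2e, Ak1 and Ackr3. The windows, drawn as above with the match in capitals, lie at chr7:46715732-46715811 for Saa3, chr7:46743119-46743198 for Saa1 and chr2:32387910-32387989 for Lcn2, all on the minus strand.
Saa3: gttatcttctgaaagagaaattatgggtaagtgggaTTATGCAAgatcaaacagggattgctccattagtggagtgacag
Saa1: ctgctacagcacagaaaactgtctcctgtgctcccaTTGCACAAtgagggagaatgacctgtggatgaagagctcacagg
Lcn2: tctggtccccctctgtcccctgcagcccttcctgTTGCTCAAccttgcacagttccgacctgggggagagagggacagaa
The match begins at base -99 in Saa3, -182 in Saa1 and -216 in Lcn2. The kappaB motif, searched by a degenerate form on either strand, was found in 1 of the 49 (2.04%) and in 1.63% of all genes, and none of these 3 promoters held it.

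The list of secreted factors linked to senescence overlaps with the lists above, and it also holds Cdkn1a, whose product p21 is not secreted. Of its 19 genes, 5 rose, Cdkn1a, Gdf15, Timp1 and Ccl2 among them, 0 fell and the median was 0.34. Timp1, an inhibitor of matrix metalloproteinases, rose 2.04-fold on the probe used, while another probe gave 0.41 against 1.03. Its call ended without any one of mice 7, 9 and 10 (adjusted p up to 0.058), with all arrays (0.22) and with the mean of its probes (0.053), and control mouse 4 (-1.72) was within the range at 75 mg/kg/day.

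Endothelial genes went both ways. Of 42 markers of capillary and general endothelium, 2 rose (Mmrn2 and Ramp3), 2 fell (Gpihbp1 and Ednrb) and the median was -0.01. The mean log2 ratio of the whole list was 3.82 to 3.98 at 25 mg/kg/day and 3.69 to 4.02 at 75 mg/kg/day. The pan-endothelial markers Pecam1 and Cdh5, named after their values were seen, differed by 0.23 ± 0.13 and 0.03 ± 0.19 (SE) without passing (adjusted p = 0.71 and 0.99). A second Cdh5 probe gave 0.23 against 0.03. Gpihbp1, which carries lipoprotein lipase to the capillary lumen, was at 4.88, 4.5, 4.84, 4.92 and 4.36 in mice 6 to 10 and at 3.37, 3.02, 3.24, 3.88 and 2.79 in mice 16 to 20. Every mouse at 75 mg/kg/day was below every mouse at 25 mg/kg/day, and the level at 75 mg/kg/day was lower by 2.72-fold (2.07 to 3.56, limma adjusted p = 0.0037). The controls (4.44 to 4.96) overlapped with the mice at 25 mg/kg/day and with none at 75 mg/kg/day.

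Ednrb, the endothelin receptor of a lung capillary subtype, was at 2.14, 2.45, 1.90, 2.23 and 2.68 in mice 6 to 10 and at 1.09, 0.97, 1.07, 1.78 and 1.23 in mice 16 to 20. Mouse 19 was the highest at 75 mg/kg/day, just below mouse 8, the lowest at 25 mg/kg/day. The level was lower by 2.07-fold (1.62 to 2.66, limma adjusted p = 0.014), a second probe gave -0.90 against -1.05, and the call ended without mouse 16 (adjusted p = 0.051) and with the scanner's processed signals (0.21). Mmrn2, an endothelial matrix protein that binds vascular growth factor, was at 6.11, 5.92, 6.33, 6.11 and 5.62 in mice 6 to 10 and at 8.13, 7.42, 8.12, 7.02 and 7.07 in mice 16 to 20. The groups were separate, with a rise of 2.90-fold (2.08 to 4.04, limma adjusted p = 0.0077, and 0.073 with the scanner's processed signals). Cd34, a sialomucin of endothelial and stromal cells that was named after its value was seen, rose 2.45-fold (1.92 to 3.13, adjusted p = 0.0037). Ramp3, a partner of the receptor for adrenomedullin, rose 1.44-fold, and its call ended without any one of mice 6, 7, 8, 10, 16, 17 and 18 (up to 0.092) and with all arrays (0.22).

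**Figure D3:**
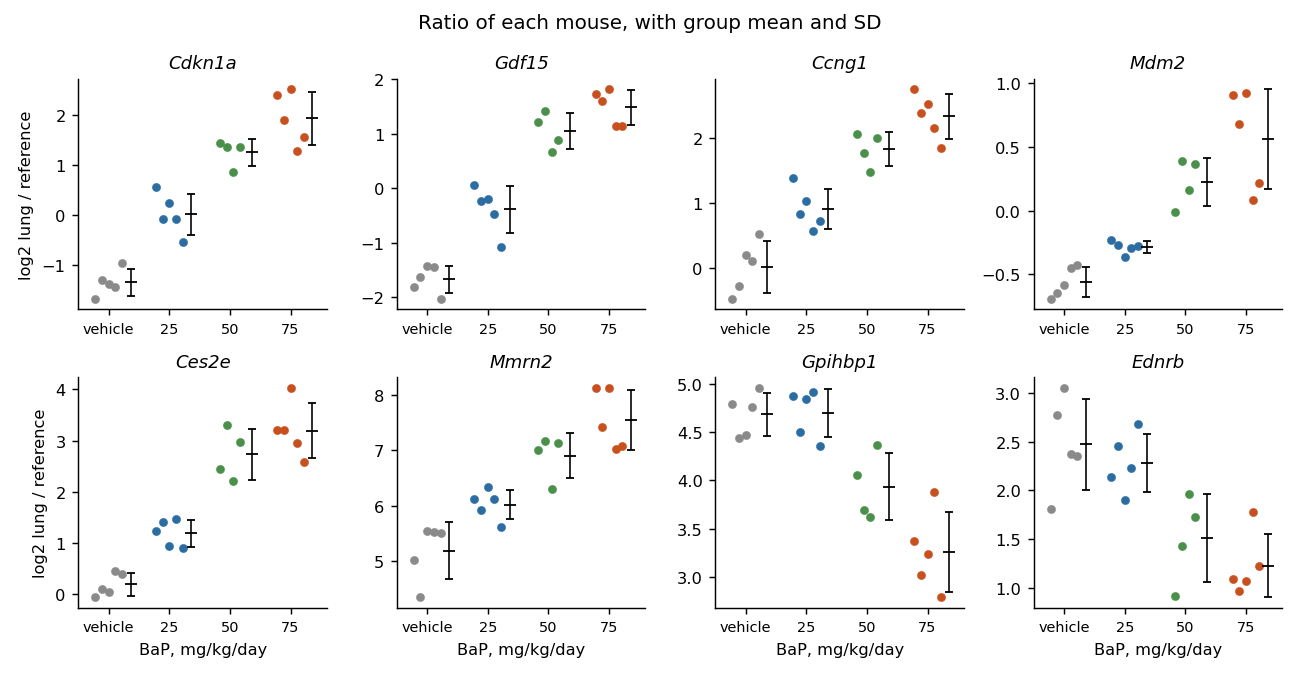
Log2 lung over reference ratio (y axis) of 4 p53 targets, Ces2e and 3 endothelial genes in each mouse by dose group (x axis; vehicle 5 mice, 25 mg/kg/day 5, 50 mg/kg/day 4, 75 mg/kg/day 5), with the group mean and SD. In all 8 panels the mice at 25 and 75 mg/kg/day do not overlap; Cdkn1a and Gdf15 at 25 mg/kg/day lie above the controls, whereas Gpihbp1 and Ednrb at 25 mg/kg/day overlap with the controls.

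Other rises, all but that of Ccdc184 named after their values were seen, were those of Ccdc184, a coiled-coil protein of little known function (2.65-fold, 1.80 to 3.91), Sncg, gamma-synuclein (2.31-fold), Thyn1, a nuclear protein (2.09-fold), the thiamine carrier Slc19a2 (1.98-fold) and Cpt1c, a carnitine palmitoyltransferase of the brain (1.72-fold). The calls of Ccdc184 (without any one of mice 7, 9, 10, 16 and 18, adjusted p up to 0.091), Sncg (7, 9, 10 and 18, up to 0.055) and Thyn1 (7, 16 and 18, up to 0.055) depended on single mice, and those of Slc19a2 and Cpt1c did not. With the scanner's processed signals Ccdc184 and Sncg did not pass (0.26 and 0.27). A second Cpt1c probe gave a difference of 0.4 against 0.78 for the probe used.

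The remaining falls were smaller, with Pdgfra, Igfbp6 and the chemokine receptor Cxcr6 among them. Among 35 markers of fibroblasts and collagens, 2 fell (Pdgfra and Igfbp6), 0 rose and the median was -0.01. Pdgfra, the receptor for platelet-derived growth factor, was at 0.40, 0.51, 0.34, 0.38 and 0.45 in mice 6 to 10 and at -0.24, -0.13, -0.13, 0.05 and 0.00 in mice 16 to 20. The groups were separate, at 1.42-fold lower (1.27 to 1.59, limma adjusted p = 0.010), but a second Pdgfra probe differed by -0.01, and with the mean of both probes the call ended (0.17). Igfbp6, a binding protein of insulin-like growth factors, was 1.54-fold lower, and its call ended without any one of mice 7 to 10, 16 and 18 (adjusted p up to 0.103). Within the IGF axis Igf1 went the other way, at 0.59 ± 0.13 (SE), without passing (adjusted p = 0.071, and 0.043 with slide as a block).

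Galnt15, an enzyme that starts mucin-type glycans, was 1.78-fold lower (1.44 to 2.19, limma adjusted p = 0.018), with the call lost without any one of mice 9, 10, 16 and 18 (up to 0.065) and with the scanner's processed signals (0.15). Mfap2, a protein of elastic microfibrils, was 1.63-fold lower on the probe used, while another gave -0.16 against -0.70, and its call ended without any one of mice 10, 16 and 18 (up to 0.055). Cpne5, a calcium-binding copine, was 1.53-fold lower with overlapping groups, another probe gave -0.18 against -0.61, and it did not pass with slide as a block (0.075), with the mean of its probes (0.16) or without any one of mice 6, 8, 9, 10, 16, 17 and 18 (up to 0.101). Slc6a2, the noradrenaline transporter, was 1.48-fold lower (call lost without any one of mice 6, 7, 8, 10, 17 and 18, up to 0.094, and with all arrays, 0.20). The peptide gene Grp did not pass, at -1.21 ± 0.29 (adjusted p = 0.11).

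Cxcr6, a chemokine receptor of resident lymphocytes, was 1.41-fold lower (1.24 to 1.60, limma adjusted p = 0.020), and the call ended without any one of mice 8, 9, 10, 16 and 18 (up to 0.071) and with all arrays (0.22). The lymphocyte marker lists had negative medians and no member that passed. Of 15 genes of NK and cytotoxic cells, 0 rose and 0 fell, and all 15 differences were negative with a median of -0.27. Over all 18566 genes tested, 8420 differences were positive. The chemokine Ccl5 was at -0.61, -1.13, -1.11, -1.24 and -0.40 in mice 6 to 10 and at -2.28, -1.92, -2.02, -1.63 and -0.70 in mice 16 to 20. Mouse 20 overlapped with the lower dose, and the difference of -0.82 ± 0.26 (SE) did not pass (adjusted p = 0.29), nor did that of Nkg7, a granule protein (-0.41 ± 0.13, adjusted p = 0.31).

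Of 29 genes of B cells and plasma cells, 0 passed in either direction, 6 differences were positive and the median was -0.24. With slide as a block 3 of the 29 were lower, among them Jchain, the joining chain of secreted antibodies (-0.74, adjusted p = 0.011 with the block and 0.14 without), and Tnfrsf13c, the receptor for BAFF (-0.48, 0.024 and 0.060). Of 21 T cell genes, 0 passed, 1 difference was positive and the median was -0.14. The kinase Lck (-0.37 ± 0.12) and the transcription factor Lef1 (-0.30 ± 0.09) did not pass (adjusted p = 0.32 and 0.29), and Lck had an adjusted p of 0.036 with slide as a block. Among proliferation genes 0 of 38 passed, with 3 positive differences and a median of -0.15. Stmn1, which destabilises microtubules, was at -0.49 ± 0.10 (adjusted p = 0.051, and 0.021 with slide as a block), and the replication helicase subunit Mcm4 at -0.28 ± 0.08 (0.21). Over all 18566 genes, 8420 differences were positive and the median was -0.01. With median centring the NK, B, T cell and proliferation lists had medians of -0.24, -0.01, 0.04 and 0.19 beside 0.21 over all genes.

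With loess, cytoplasmic ribosomal protein genes were lower at 75 mg/kg/day by a small amount. Relative to all genes, both the size and the direction of the list's median depended on the scaling. Of 80 genes, 7 fell, 0 rose, 79 differences were negative and the median was -0.31, while 8420 of all 18566 differences were positive. Rps4x was at -0.14, -0.26, -0.18, -0.40 and -0.19 in mice 6 to 10 and at -0.76, -0.74, -0.94, -0.62 and -0.80 in mice 16 to 20, a level 1.45-fold lower (1.29 to 1.64, limma adjusted p = 0.010) with no overlap. With median centring the same gene was at 0.09, Fau at 0.14, Rps24 at 0.15, Rpl12 at 0.19, Rpl8 at 0.21 and Rps20 at 0.26, against 0.21 for the median of all genes and 0.25 for that of the list, so that the first 4 of these genes lay below the median of all genes, Rpl8 at it and Rps20 above it. The lung channel alone gave the list a median of -0.10, and the authors' deposited ratios one of -0.12. With either of these none of the 7 passed. Leaving out 1 mouse ended the calls of Rps24 (without any one of mice 8, 10, 16 and 18), Rpl12 (6, 8, 9, 10, 16, 18 and 19), Fau and Rps20 (6 to 10, 16, 18 and 19), Rpl8 (6, 7, 8, 10 and 16 to 19) and Rpl22l1 (7 to 10 and 16 to 19), with adjusted p up to 0.123, and in no case that of Rps4x. Rpl22l1, the remaining member that fell (-0.57, limma adjusted p = 0.033), was at -0.08 with median centring, and did not pass with slide as a block (0.074).

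Of 17 genes of the AhR battery, 0 passed in either direction, and the median was -0.03. Cyp1a1, the oxidase that activates BaP, was at 0.27, 0.20, 1.21, 0.50 and 0.72 in mice 6 to 10 and at 0.31, 0.23, 0.45, 0.13 and 7.30 in mice 16 to 20. Of the mice at these doses, mouse 20 alone was high. The controls, outside the comparison, stood at 0.84 to 2.27, above the rest of the mice at 75 mg/kg/day (0.13 to 0.45). Cyp1a1 was well above background on 3 of the 5 arrays at either dose, and its values on the others are bounds at best. The difference was 1.10 ± 1.12 (SE, limma adjusted p = 0.87) with mouse 20 and -0.30 without it (0.57). Mouse 20 also held the highest value at 75 mg/kg/day of Cyp1b1 (2.43, others -1.13 to -0.62), of the repressor Ahrr (1.10, others -0.01 to 0.10) and of the quinone reductase Nqo1 (0.44, others -1.38 to -1.20). The last 2 genes were named after their values were seen. Mouse 20 did not stand apart in the p53 targets, where its Cdkn1a (1.56) and Gdf15 (1.15) were among the lower values at that dose. Marker lists of other tissues were highest in mouse 20 at that dose, with a mean log2 ratio of 2.35 for cardiac muscle (others 0.09 to 1.46), 3.63 for airway secretory cells (2.05 to 3.02) and 2.17 for adipose tissue (1.02 to 1.64), and their part in the AhR values was not tested.

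**Figure D4:**
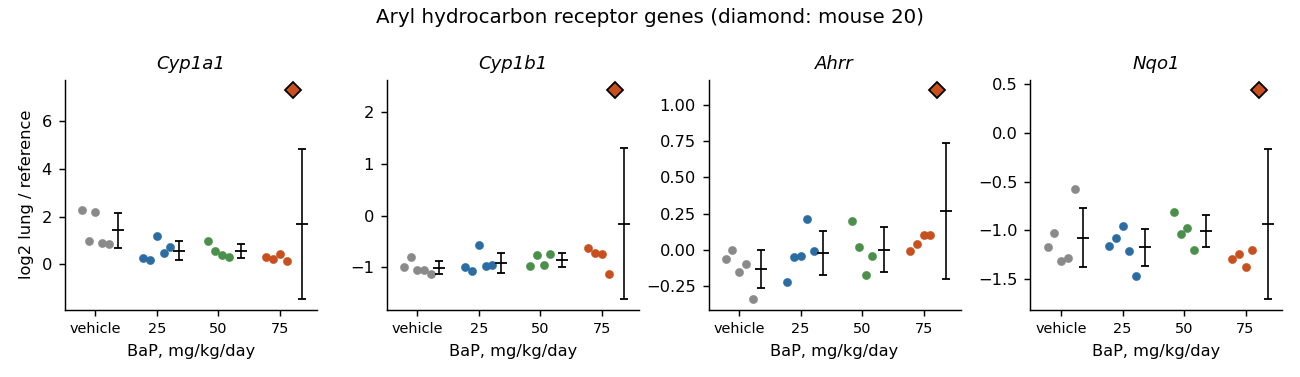
Log2 lung over reference ratio (y axis) of 4 AhR genes in each mouse by dose group (x axis; vehicle 5 mice, 25 mg/kg/day 5, 50 mg/kg/day 4, 75 mg/kg/day 5), with the group mean and SD. Mouse 20, the diamond, reaches 7.30 in Cyp1a1, 2.43 in Cyp1b1, 1.10 in Ahrr and 0.44 in Nqo1, and the other 4 mice at 75 mg/kg/day stay near the mice at 25 mg/kg/day.

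Macrophages gave 1 large difference that did not pass. Marco, the scavenger receptor of alveolar macrophages, was at 2.25, 2.13, 4.02, 4.04 and 3.63 in mice 6 to 10 and at 5.94, 4.74, 5.10, 4.36 and 5.01 in mice 16 to 20. The doses did not overlap, but the mice at 25 mg/kg/day were spread over nearly 2 log2 units, and the difference of 1.82 ± 0.40 (SE) had an adjusted p of 0.072 (0.013 with slide as a block). The 30 markers of macrophages and monocytes had 0 members called and a median of 0.04. Interferon-stimulated genes leaned upward with 29 of 33 differences positive (8420 of 18566 over all genes), a median of 0.14 and 0 called. For Irf9 the difference was 0.28 ± 0.07 (limma adjusted p = 0.13) and for Tap1 0.38 ± 0.11 (0.19). A second Irf9 probe gave 0.08. In the plot of list medians, the lists of senescence-associated factors (0.34), p53 arrest and survival targets (0.33) and acute inflammation (0.17) lie highest, and those of ribosomal proteins (-0.31), NK cells (-0.27) and B cells (-0.24) lowest. No member was called in the lists of the respiratory chain (75 genes, median -0.01), nucleotide excision repair (28, -0.04), NRF2 and metallothioneins (19, 0.06), alveolar type 1 (18, -0.09) and type 2 cells (23, -0.11), or the airway secretory cells (18, 0.01).

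**Figure D5:**
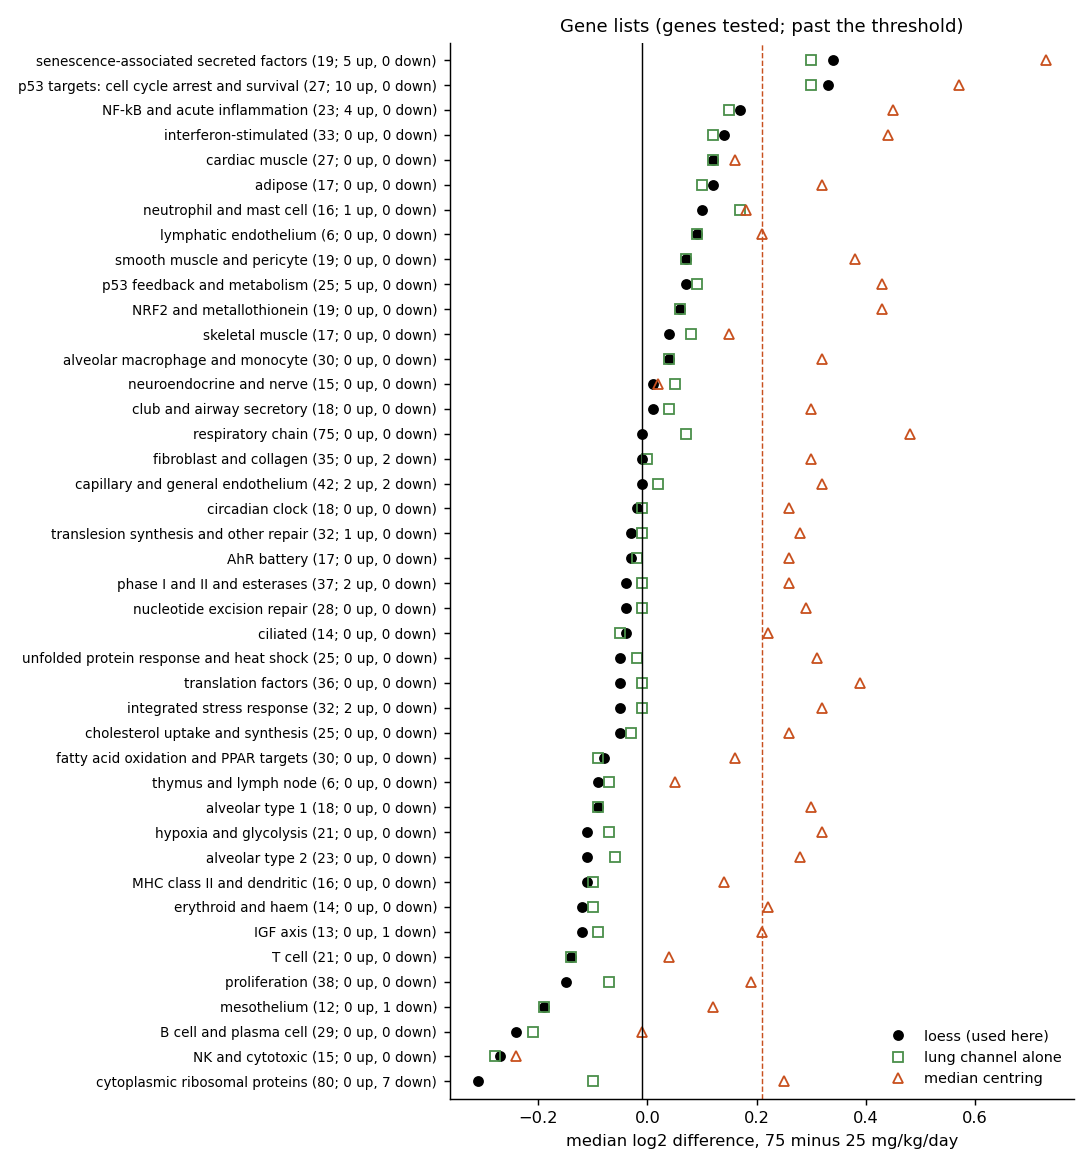
Median log2 difference (75 minus 25 mg/kg/day, x axis) of the genes of each list (y axis), with the number tested and the numbers past the threshold in either direction; circles are the loess ratios used here, squares the lung channel alone and triangles median centring. The solid line is the median of all genes with loess (-0.01) and the dashed line that with median centring (0.21); the ribosomal proteins lie at -0.31 with loess and 0.25 with median centring.

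The groups that did not enter the test are given beside the called genes as a description. These genes were chosen by their means at 25 and 75 mg/kg/day, so no test was made. That choice by itself favours a mean at 50 mg/kg/day between them and a mean at 75 mg/kg/day beyond the control mean. The mean at 50 mg/kg/day lay between the means at 25 and 75 mg/kg/day for 75 of the 76 genes that rose and 26 of the 27 that fell (the exceptions, chosen after their values were seen, were Saa1 and a transcript without a symbol), at a median of 0.56 and 0.62 of the way from 25 to 75 mg/kg/day. The mean at 75 mg/kg/day was beyond the control mean for all 76 and all 27. At 25 mg/kg/day the mean differed from the control mean in the direction of the change at 75 mg/kg/day for 59 of the 76 and 18 of the 27, and for the other 17 and 9, Saa3 among them, it did not. No margin was set for these counts, and some of the means counted were nearly equal, such as 1.17 at 25 mg/kg/day and 1.16 in controls for Lcn2.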

How the data were processed

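Per the file headers, the deposited intensities of both colours come from Agilent's Feature Extraction software, version 10.7.3.1. Lung RNA carried Cy5 and the reference Cy3 on all arrays, per the labels, with no dye swap. Background was corrected with normexp (offset 50), which compresses folds of dim spots, and arrays were normalized by loess in limma 3.58.1 (R 4.3.3). Outlier spots (0.29%) were left out and 0 were saturated. A probe was kept if at least 4 of the 10 arrays had its lung signal well above background, and the brightest probe stood for a gene. This left 18566 genes with 11 missing values, 11990 with a symbol (RefSeq, GRCm38.p6) and 6576 under an accession. The 10 arrays were fitted with a mean per dose (lmFit, eBayes, two-sided, Benjamini-Hochberg over all genes). The authors' deposited log2 ratios, with their centring not given in the sources used here, were an alternative. The labels do not pair mice, each mouse is its own replicate, and their number limits the precision. On simulated data of 18555 genes with this design, 62% of changes of 0.5 on the log2 scale were called. The shares were 100% for 1, 96% for 1.5 and 100% for 2, and 9 unchanged genes were called. Noise there was normal and independent between arrays, with no slide effect, so these shares may not hold for the real data. The genes compared and the 42 lists were chosen with earlier results of these data known. Named were the 12 largest rises and falls past the threshold whose 5 values per dose all lay beyond the other dose's mean, up to 4 members per list with the smallest p, and Cyp1a1, Cyp1b1, Cdkn1a, Gdf15 and Mdm2; further called genes were named after their values were seen. Some results are not reported here.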

Additional observations from a re-analysis of the deposited data

Results flagged for a closer look

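Among the 76 genes named, 152 sets of 5 mice at 1 dose were searched for a mouse whose gap to the nearest of the others, divided by the range of the 5, exceeds Dixon's 95% critical value (0.71 for 5 samples), and 9 were found. Chance flags about 1 in 20 groups. Mouse 20 at 75 mg/kg/day stood apart in Cyp1a1 (log2 ratio 7.30, others 0.13 to 0.45), Cyp1b1 (2.43, others -1.13 to -0.62), Ahrr (1.10, others -0.01 to 0.10) and Nqo1 (0.44, others -1.38 to -1.20). Over all 18566 genes, mouse 20 was the highest by this measure in 235 genes and the lowest in 377, of 1151 genes (6.2%) with any mouse apart at 75 mg/kg/day. Its array is also the one marked by the quality report, and the marker lists of cardiac muscle, airway secretory cells and adipose tissue were also highest in this mouse at that dose, as given above. The part of the array and of these tissues was not tested. The other sets were Phlda3 in mouse 16 (2.62, others 2.22 to 2.28), Lck in mouse 17 (-0.46, others -0.91 to -0.82), Cxcl1 in mouse 19 (-2.42, others -2.0 to -1.91), Cyp1b1 in mouse 8 at 25 mg/kg/day (-0.57, others -1.07 to -0.96) and Pecam1 in mouse 9 at 25 mg/kg/day (2.56, others 3.00 to 3.17).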

How the results depend on the processing

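Of the 51 called genes named, 45 kept their direction in all 28 alternatives and 23 kept their call in at least 25. The counts of all called, higher, lower and at least 1.5-fold different genes (103, 76, 27 and 64) became 0, 0, 0 and 0 with median centring, 226, 132, 94 and 89 with slide as a fixed block, 347, 211, 136 and 105 with slide as a random block (correlation 0.337), 224, 141, 83 and 100 with scan day as a block, and 201, 135, 66 and 100 with array weights. The lung channel with the slide block gave 191, 132, 59 and 92, and median centring with the slide block 6574, 6536, 38 and 511, where the median of all genes was 0.212; these were chosen after seeing the data. Genes lower numbered 17 with the authors' deposited ratios and 17 in the lung channel alone. Leaving out 1 mouse at a time gave 37 to 184 called genes (33 to 117 higher, 4 to 67 lower, 33 to 98 at least 1.5-fold), and the mice that moved these counts most are named above. The other normalizations, filters, probe rules and the variance trend left the count of called genes within 1.5 times of 103 (89 to 116), as did leaving out slide 5 (123). With median centring, with or without the slide block, Rps4x (0.09), Fau (0.14), Rps24 (0.15), Rpl12 (0.19), Rpl8 (0.21) and Rps20 (0.26) had values above 0, but the median of all genes was 0.212 there, so that no reversal relative to other genes is shown for the first 5. The reference channel gave 1 called gene with slide as a block. The labels give the mice no shared replicate numbers; each of slides 1 to 5 holds 1 mouse of either dose, so the fixed slide block above is the paired analysis by slide. The cause of these changes was not tested.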
